A study of Mus musculus with 3 samples.

Results

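Mural cells that carried transcripts of the smooth muscle genes Myh11 and Acta2 made up 61 of the 19482 cells kept in the series. A cell was kept when its barcode had at least 200 detected genes and at most 20% mitochondrial UMIs (unique molecular identifiers, each counting 1 captured transcript). A kept cell was called mural when it held UMIs of at least 3 of the 4 genes Acta2, Myh11, Rgs5 and Lmod1, or at least 5 Acta2 UMIs with at least 1 of Myh11. It also had to hold no UMI of Ptprc, which encodes the blood cell marker CD45, and fewer than 10 UMIs of the chemokine gene Cxcl12. Because these counts chose the cells, the levels of the 4 genes are given as a description only.

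The cells came from bone-lining cells (BLCs) of wild-type (WT) mice. Femora, tibias and iliac bones were emptied of marrow and digested with collagenase, and cells positive for Alcam and negative for Sca-1, CD45, Ter119 and CD31 were sorted for droplet 3′ single-cell RNA sequencing. The 3 libraries, replicates 1 to 3, form 1 group that shares this genotype and sort, with no treatment and with no animal, batch or age named for a library. With no animal named, the spread between libraries may be technical.

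Mural cells surround the endothelial tube of blood vessels. Smooth muscle cells wrap arteries, arterioles and veins and set vessel diameter through an actin and myosin apparatus that responds to nerves, hormones and nitric oxide, whereas pericytes sit on capillaries within the basement membrane and hold less of that apparatus. Both depend on PDGF signalling from the endothelium to Pdgfrb and on Notch3, and in bone marrow the arteriolar and sinusoidal vessels they and the reticular cells accompany are part of the perivascular niche of haematopoietic stem cells.

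The mural cells were almost all in a single library. Replicate 1 held 55 of 2527 kept cells (2.18%, exact binomial 95% interval 1.64% to 2.82%), replicate 2 held 4 of 6725 (0.0595%, 0.0162% to 0.152%) and replicate 3 held 2 of 10230 (0.0196%, 0.00237% to 0.0706%). The mean share was 0.752% ± 1.23 (SD, n = 3 libraries), so the spread between libraries was larger than the mean, and these intervals cover counting error only. Without replicate 1 the mean share was 0.0395%. Set against other stromal cells of the same library, there were 9.47, 4.44 and 1.85 mural cells per 100 CXCL12-abundant reticular (CAR) cells in replicates 1, 2 and 3. CAR cells, the perivascular reticular cells of the marrow, were taken here as cells with no Ptprc UMI, at least 10 Cxcl12 UMIs and a Lepr UMI, and numbered 581, 90 and 108. Per 100 tendon-rule cells, which had no Ptprc UMI, fewer than 10 Cxcl12 UMIs and UMIs of at least 3 of Scx, Tnmd, Mfap4, Mkx and Kera, the values were 102, 7.14 and 4.55, over 54, 56 and 44 such cells.

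**Figure D1:**
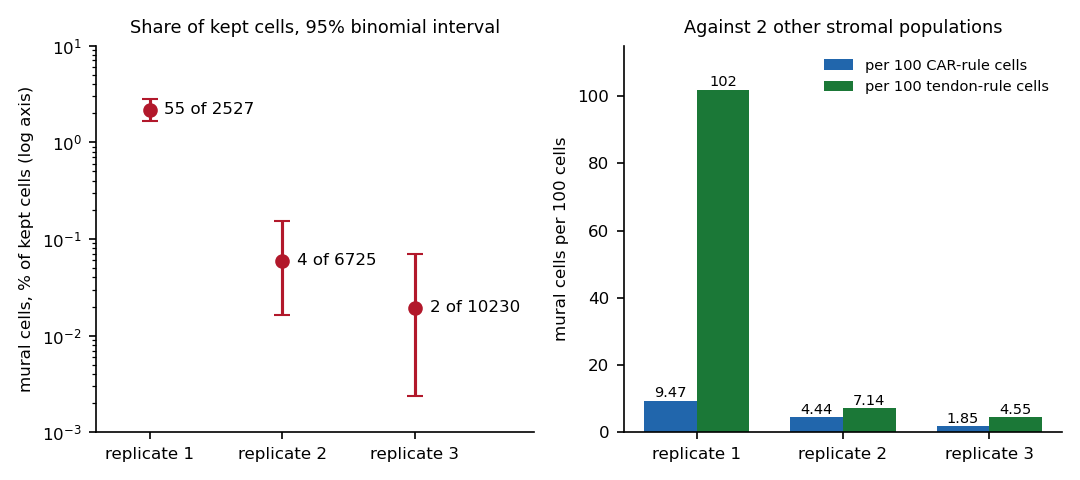
Mural cells per library. Left, share of kept cells in percent on a log axis with the exact binomial 95% interval (counting error only), 2.18% in replicate 1 and under 0.1% in the other libraries. Right, mural cells per 100 CAR-rule cells (blue) and per 100 tendon-rule cells (green), highest in replicate 1 on both scales.

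The depth of the mural cells allowed gene-level description only in replicate 1. Its 55 cells held 332137 UMIs, from 2501 to 27277 per cell with a median of 5587, beside a median of 5663 over all kept cells of that library. They had a median of 2289 detected genes and 3.35% mitochondrial UMIs. The 4 cells of replicate 2 held 64386 UMIs and the 2 of replicate 3 held 4639. With members in effect from 1 library there is no replicate of the population, so no test was made. Counts were summed over the cells of a population in replicate 1 and scaled to 1000000 UMIs (CPM). Each ratio of CPM carries an exact 95% counting interval, and cells are not replicates. Between libraries, 5, 9 and 28 barcodes were shared, none of them a mural cell.

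Of the 6 genes that mark mural cells here, Tagln and Myl9 were not used to choose the cells, and both were abundant in them. Tagln, encoding the actin-binding protein transgelin, was found in all 55 mural cells of replicate 1, with 2 UMIs in the lowest cell, 43 in the median cell and 136 in the highest. Its level was 8147 CPM, against 10.0 CPM in the other 2472 kept cells of the library, a ratio of 815 (707 to 944). Myl9, a regulatory light chain of smooth muscle myosin, was found in 52 of the 55 cells (lowest 0, median 14, highest 103 UMIs) and stood at 2960 against 13.6 CPM. In replicate 1, 93.0% of the Tagln and 78.0% of the Myl9 UMIs lay in these 55 cells. In replicates 2 and 3 the members held 4.43% and 0.713% of the Tagln UMIs and 7.37% and 0.574% of the Myl9 UMIs, and a replicate 2 cell with 1 of the 4 rule genes held 71 Tagln UMIs without being a member.

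Among the 4 genes that chose the cells, Acta2 (smooth muscle α-actin) had a lowest, median and highest count of 1, 31 and 231 UMIs per cell and stood at 6765 CPM against 5.36. Myh11 (smooth muscle myosin heavy chain) had 1, 14 and 53 UMIs per cell and stood at 2999 against 8.29 CPM. Lmod1 (leiomodin, which nucleates actin filaments) was found in 53 cells and stood at 1129 against 2.19 CPM. Rgs5, which shortens G protein signalling and is widely used as a pericyte gene, differed from these. It was found in only 14 of the 55 cells, with 2 to 78 UMIs in those, and its level was 951 CPM against 26.1. Of the Rgs5 UMIs in kept cells of replicate 1, 37.1% (316 of 851) lay in mural cells, beside 95.3% of the Acta2 UMIs.

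Free RNA in droplets can give a UMI in a cell that does not express the gene. In cells of replicate 1 with a Ptprc UMI, which should lack these transcripts, 3.45% had an Acta2 UMI, 2.07% a Myh11 UMI, 2.07% a Myl9 UMI and 2.07% an Rgs5 UMI, at a median depth of 21485 UMIs against 5587 in mural cells. After every cell was thinned to 2000 UMIs, which left out 0 mural cells and 5 of the 145 cells with a Ptprc UMI, Acta2 was seen in 94.5% of mural cells and 0.714% of Ptprc cells, Tagln in 98.2% of mural cells, and Rgs5 in 23.6% of mural cells and 0.714% of Ptprc cells.

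The rule has an edge, and the counts just inside and outside it were as follows in replicate 1. Among the non-members counted here, 7 cells held UMIs of 2 of the 4 genes, with a median of 2 Acta2 UMIs and 1 Tagln UMI. The non-members counted are only part of those kept. Of 97 kept cells with an Acta2 UMI, 55 were members, and the groups counted with 2 and 1 of the 4 genes hold 5 and 28. The 41 members with 3 of the 4 genes had medians of 35 Acta2 and 45 Tagln UMIs, and the 13 members with all 4 had 29 and 31. Of the non-members counted, those with 1 of the 4 genes had a median of 0 Acta2 and 0 Tagln UMIs. The edge was not clean, since these cells reached 16 Acta2 and 17 Tagln UMIs. Those non-members with 2 of the 4 reached 5 and 16, while the lowest members held 1 Acta2 and 2 Tagln UMIs. A single member entered through Acta2 and Myh11 alone, with 10 Acta2 and 42 Tagln UMIs. The Cxcl12 limit kept out 1 further cell and the Ptprc limit none.

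The 6 cells of the other libraries were of mixed content. In replicate 2, 3 of the 4 cells held both Tagln and Myl9, with 49, 10 and 7 Tagln UMIs, and these 3 also held Rgs5 (17, 8 and 17 UMIs). The remaining cell of replicate 2 held 8 Acta2 UMIs and 1 Myh11 UMI but no Tagln, Myl9 or Tpm2, together with 874 UMIs of Col2a1, the collagen of cartilage. Of the 3 cells with Tagln, the cell with 7 Tagln UMIs carried 606 Col2a1 UMIs. The cell with 49 Tagln UMIs also held 6 UMIs of Pecam1 and 4 of Cdh5, both endothelial genes, and the 4 cells together held 14 of Cldn5, 13 of Esam, 10 of Flt1 and 14 of Ly6a. In replicate 3, 1 of the 2 cells had 11 Acta2, 9 Tagln and 8 Myh11 UMIs, and the other had 1 Acta2 UMI, 7 Rgs5 UMIs, no Tagln and 133 Col2a1 UMIs. In replicate 1, a mural cell held 1645 UMIs of the immunoglobulin gene Igkc, and another pair held 941 and 274 UMIs of Col1a1. Among the barcodes with the highest doublet scores were 1 member in each library, which in replicates 2 and 3 were the cells with 606 and 133 Col2a1 UMIs. In replicate 1 it was a cell of 14943 UMIs. Of the UMIs in the mural cells of replicate 1, it held 331 of 421 for the osteoblast gene Ibsp, 123 of 222 for Dcn and 68 of 83 for Comp. Whether cells of mixed content are droplets with more than 1 cell was not tested. The 3 cells of replicate 1 with high Igkc or Col1a1 and its cell with the high doublet score are kept in the values below, and values that turn on them are marked.

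**Figure D2:**
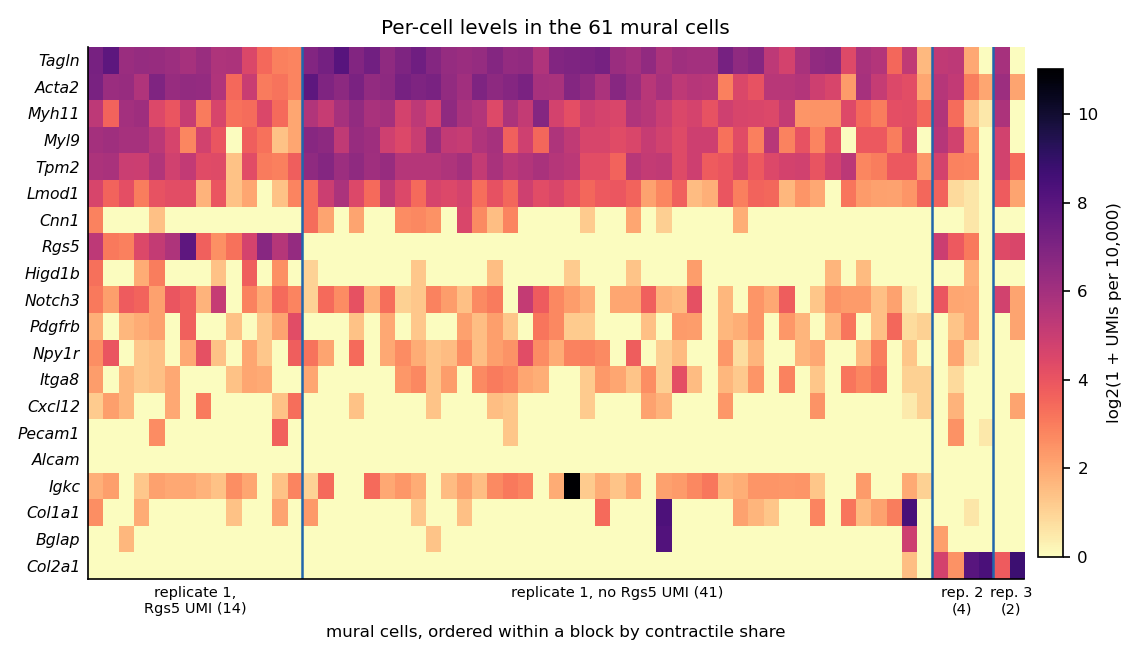
Levels of 20 genes in each of the 61 mural cells as log2 of 1 plus UMIs scaled to 10000 per cell, with replicate 1 divided by presence of an Rgs5 UMI (14 and 41 cells) and replicates 2 (4 cells) and 3 (2 cells) at the right. Tagln, Acta2 and Tpm2 fill all columns of replicate 1, Alcam is empty throughout, and single cells stand out for Igkc, Col1a1 with Bglap, and Col2a1.

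Across all genes, 5332 had a mean of at least 30 CPM over mural cells and the other cells of replicate 1, of which 359 (6.73%) were at least 4-fold higher in mural cells and 313 (5.87%) at least 4-fold lower. The median log2 ratio of these genes was 0.14. Against CAR-rule cells 5484 genes passed, with 304 (5.54%) higher and 480 (8.75%) lower. Against tendon-rule cells 5363 passed, with 344 (6.41%) higher and 348 (6.49%) lower. A gene that is low elsewhere can pass this limit only through its level in mural cells, so the shares are a scale for the counts of each gene list and not support for them. Counts of 0 were set to 3 UMIs, which is 9.03 CPM in the mural cells and 0.787 CPM in CAR-rule cells.

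Of 25 contractile genes, 23 passed the level limit and 22 were at least 4-fold higher than in the other cells, with none lower and a median log2 ratio of 5.57 beside 0.14 for all genes. The gene that passed and was not 4-fold apart was Vcl (vinculin), at 358 against 138 CPM. The 4 genes that chose the cells include 3 of this list, Acta2, Myh11 and Lmod1, and without these 20 passed and 19 were higher, with a median log2 ratio of 4.19. Genes that are low elsewhere, such as Cnn1, Pln, Ppp1r14a, Tpm2 and Des, passed only through their level in mural cells. Outside the 3 genes of the rule, Tpm2 (β-tropomyosin) stood at 3237 against 27.4 CPM, 118-fold (107 to 131), and was found in all 55 cells. Mustn1, a small nuclear protein of muscle, stood at 1767 against 37.1 CPM, and Des (desmin, the muscle intermediate filament) at 343 against 6.48.

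Other parts of the apparatus followed the same order. Pln (phospholamban), which restrains calcium uptake into the sarcoplasmic reticulum, stood at 551 against 2.73 CPM and was found in 39 of 55 cells. Mylk, the kinase that activates smooth muscle myosin, stood at 1448 against 86.9 CPM, and Ppp1r14a, an inhibitor of the myosin phosphatase, at 208 against 2.78. Cnn1 (calponin, a gene of mature smooth muscle) stood at 178 against 0.439 CPM, but its UMIs came from only 16 of 55 cells, with 46.4% in the 3 highest. Actg2, the actin of visceral smooth muscle, had 12 UMIs in 2 cells. The 10 skeletal muscle genes held 2 UMIs in all, and the 5 cardiac genes, among them Actc1 and Myh6, held none.

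The list stayed apart from both stromal populations. Against CAR-rule cells 19 of the 23 genes were at least 4-fold higher and none lower (median log2 ratio 4.88, all genes −0.0034), and against tendon-rule cells 21 and none (4.60, all genes 0.032). Without the 3 genes of the rule, 16 and 18 of 20 were higher, with medians of 3.77 and 4.36. Tpm1 (α-tropomyosin) was not 4-fold apart from CAR-rule cells, at 2439 against 1517 CPM, 1.61-fold (1.49 to 1.73). Acta2 had 2 UMIs in all 581 CAR-rule cells (0.525 CPM) but 35 in the 54 tendon-rule cells (94.5 CPM), and Tagln had 37 UMIs in each.

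The share of a cell's UMIs that fell on the 25 contractile genes varied widely among the mural cells. In replicate 1 it ran from 0.889% to 8.63% with a median of 4.08% (quartiles 2.79% and 5.43%). The other cells of the library had a median of 0.125% and a highest value of 2.73%, CAR-rule cells a median of 0.327% and a highest of 0.934%, and tendon-rule cells a median of 0.193% and a highest of 0.844%. The groups overlapped at their ends with the other cells but the lowest mural cell still lay above the highest tendon-rule cell and below the highest CAR-rule cell. The 4 cells of replicate 2 had 0.175%, 1.91%, 2.87% and 0.522%, and the 2 of replicate 3 had 3.67% and 0.674%.

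Over the 55 cells, Acta2 CPM and Myl9 CPM had a Spearman rho of 0.70, Acta2 and Lmod1 0.62, Acta2 and Tagln 0.61 and Acta2 and Myh11 0.54. Myh11 and Myl9 had 0.48 and Myh11 and Tagln 0.40, while Acta2 and Rgs5 had −0.12 and Acta2 and Itga8 0.066. Total UMIs and the contractile share had a rho of 0.017. Acta2, Myh11 and Lmod1 chose the cells. These are descriptions over 55 cells of 1 library that share its depth and free RNA, and values near 0 in such sparse counts say little.

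**Figure D3:**
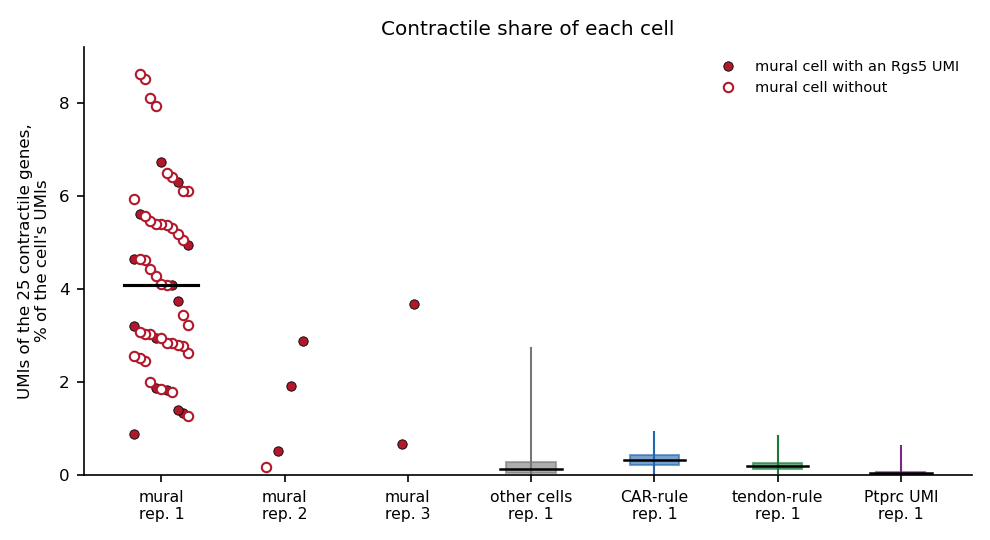
Percent of each cell's UMIs on the 25 contractile genes. Points are single mural cells of replicates 1, 2 and 3 (filled with an Rgs5 UMI, open without) with the median of replicate 1 (4.08%) as a bar. For the other populations of replicate 1 the box gives the quartiles, the bar the median and the line the lowest and highest cell, all with medians below 0.4%.

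Among the contractile genes, Acta2 and Myl9 hold near their start sites the CArG box, the motif bound by serum response factor (SRF), which with its cofactor Myocd drives smooth muscle genes. Both stretches are shown because these genes carry 2 boxes each, in the 250 bases before the start that the RefSeq promoter table (GRCm38.p6) gives. Capitals mark the boxes, found on either strand with at most 1 mismatch in the A or T core.
Acta2, chr19:34255388-34255467, minus strand: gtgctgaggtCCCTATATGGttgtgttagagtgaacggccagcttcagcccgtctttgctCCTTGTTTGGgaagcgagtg
Myl9, chr2:156775293-156775384, plus strand: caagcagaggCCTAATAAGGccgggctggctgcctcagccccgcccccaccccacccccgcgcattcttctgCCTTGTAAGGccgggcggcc
Both Acta2 boxes have 1 mismatch. The upstream Myl9 box has 0 mismatches and the other 1. Of the 21 contractile genes matched in the table, 2 (9.52%) held a box with no mismatch and 4 (19.0%) a box with at most 1, namely Acta2, Myl9, Vcl and Pcp4l1. Among all 27025 genes of the table the shares were 1.62% and 9.78%. A match is a stretch of letters and not evidence of binding. Actg2, Myh11 and Tagln were among those not matched. In the GENCODE annotation of GRCm38, Acta2 spans chr19:34241090-34255590 (minus strand), Myl9 chr2:156775420-156781658 (plus), Myh11 chr16:14194535-14291372 (minus) and Tagln chr9:45929619-45936058 (minus). The GENCODE span of Acta2 begins further upstream than its RefSeq start, so the Acta2 stretch lies before the RefSeq start and inside the GENCODE span.

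The transcriptional regulators of smooth muscle were lower in count and mixed. Of 25 listed, 23 were in the tables (Mkl1 and Mkl2 are older names of Mrtfa and Mrtfb, which were found), 14 passed the level limit and 6 were at least 4-fold higher than in the other cells, with none lower. Myocd (myocardin) stood at 175 CPM in 28 of 55 cells against 1.66, a ratio of 105 (67.8 to 166), and had no UMI in CAR-rule or tendon-rule cells. Nr2f2, a nuclear receptor of venous vessels, stood at 518 against 27.1 CPM, Mef2c at 515 against 97.9, Ebf2 at 199 against 17.1, and the mural factor Foxs1 at 160 against 8.53. Tbx2 stood at 136 against 10.7 CPM. The same 6 genes were at least 4-fold higher than in CAR-rule cells.
Srf itself had 4 UMIs (12.0 CPM) and 8.58 CPM elsewhere, a ratio whose interval, 0.378 to 3.66, includes 1. Ebf1, a factor of marrow reticular cells, stood at 849 CPM against 1734 in CAR-rule cells.

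The pericyte genes fell into several patterns. Of 21 listed, 14 passed and 9 were at least 4-fold higher than in the other cells with none lower, and 9 were higher than in CAR-rule cells and 13 than in tendon-rule cells. Rgs5, which chose the cells, is in each count, and without it 13 passed and 8, 8 and 12 were higher. Gucy1a1 and Gucy1b1, the subunits of the nitric oxide receptor guanylyl cyclase, stood at 759 against 8.0 and 181 against 4.24 CPM, in 50 and 34 of 55 cells. Notch3 was found in 48 cells (503 against 46.2 CPM), Mcam in 35, Rgs4 in 32 and the connexin gene Gja4 in 20. Pdgfrb was found in 34 cells at 187 CPM, which was 2.21-fold (1.69 to 2.85) the other cells but lower than CAR-rule cells at 322 CPM, a ratio of 0.579 (0.441 to 0.748). The proteoglycan gene Cspg4 (NG2) stood at 181 CPM in 31 cells, 3.66-fold the other cells and 17.7-fold (11.6 to 27.1) CAR-rule cells.

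The channel genes that mark pericytes of many organs were sparse. Kcnj8 had 3 UMIs in 3 cells, and Abcc9, whose product pairs with it in a potassium channel, 22 UMIs in 13 cells (66.2 against 2.63 CPM). Vtn had 5 UMIs in 3 cells, Anpep 2 UMIs and Atp13a5 none. At this depth a count of 0 allows up to 9.03 CPM. In Ptprc cells 0.690% had a Kcnj8 UMI and 0.690% an Abcc9 UMI, against 5.45% and 23.6% of mural cells.

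The 14 mural cells of replicate 1 with an Rgs5 UMI and the 41 without had similar depth, with medians of 5223 and 5587 UMIs. Of the other 20 pericyte genes, 10 had a counting interval of the ratio above 1 in the cells with Rgs5, 9 an interval that included 1, none an interval below 1, and 1 had no UMI. No share over all genes is given beside these counts or those of the contractile genes below. The intervals leave out cell-to-cell spread, so the counts are not read as a result about either list. Steap4, a metalloreductase, stood at 521 CPM with and 49.8 without, a ratio of 10.5 (5.44 to 21.5), although 72.0% of its UMIs lay in 3 cells. Higd1b stood at 296 and 34.5 CPM (8.58-fold, 3.77 to 21.3), Cox4i2 at 239 and 61.3 (3.91-fold, 1.86 to 8.27), Ndufa4l2 at 352 and 123 (2.87-fold), and Notch3 at 916 and 391 (2.34-fold, 1.69 to 3.23). Kitl, the gene of stem cell factor, stood at 690 and 295 CPM (2.34-fold, 1.60 to 3.39). Vtn had 5 UMIs in the cells with Rgs5 and 0 in the others. Among those with intervals that included 1 were Cspg4 (1.34, 0.705 to 2.42), Mcam (1.64, 0.933 to 2.80), Kcnj8, Gja4 and Abcc9.

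The contractile genes went both ways. Of the 22 that did not choose the cells, 4 had an interval above 1, among them Tpm1, Cald1 and Ppp1r14a, 5 an interval below 1 (Tagln, Mylk, Cnn1, Tpm2 and Mustn1) and 13 an interval that included 1. Myl9 was 0.951-fold (0.811 to 1.11). Tagln was 0.773-fold (0.698 to 0.854), Tpm2 0.745-fold (0.631 to 0.875) and Cnn1 0.416-fold (0.146 to 0.968), the last with 6 UMIs in 2 cells against 53 in 14. Acta2 was 0.846-fold (0.759 to 0.941). The rule asked for Acta2, Myh11 and Lmod1 together from nearly every cell without Rgs5, whereas a cell with Rgs5 could lack 1 of these. The values of these 3 genes in this division are therefore tied to how the cells were chosen. Tagln and Myl9 had a Spearman rho with Acta2 of 0.61 and 0.70, so the other contractile genes may carry the tie too, which was not tested. Npy1r and Pln had intervals that included 1. Among the members of the other libraries, 3 of 4 in replicate 2 and 2 of 2 in replicate 3 held Rgs5.

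**Figure D4:**
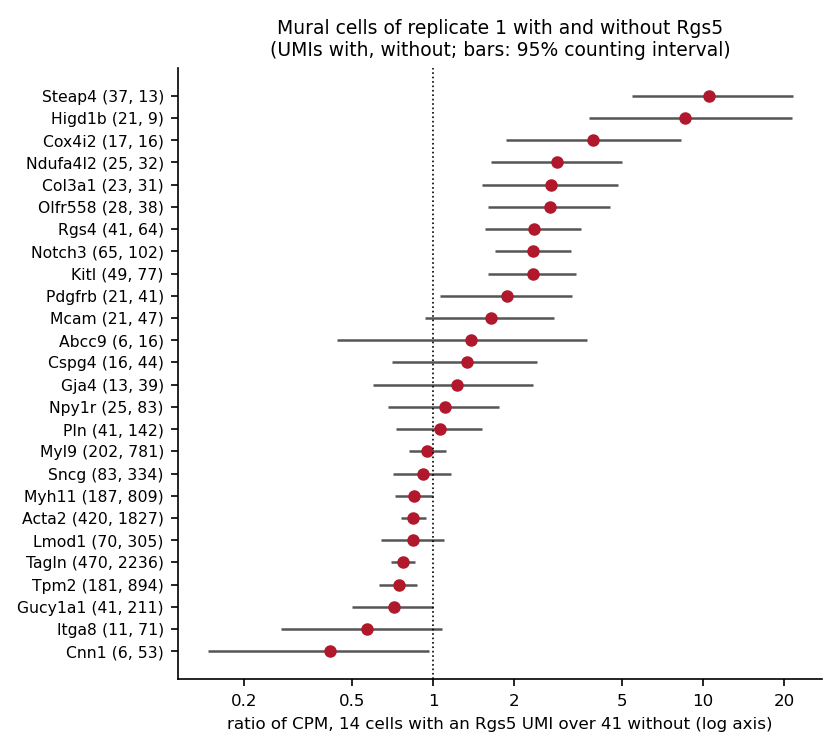
Ratio of CPM between the 14 mural cells of replicate 1 with an Rgs5 UMI and the 41 without, on a log axis, with 95% counting intervals and the UMIs of each side in brackets. Steap4 and Higd1b lie at the right (10.5 and 8.58), Tagln, Tpm2 and Cnn1 to the left of 1, and Myl9 and Pln have intervals across it.

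The 25 genes with the largest ratio to the other cells, among those with at least 30 UMIs and found in at least 20% of mural cells, were Olfr558, Npy1r, Gm37800, Acta2, Rbm24, Tagln, Xirp1, Gm13861, Map3k7cl, Lmod1, Cnn1, Sncg, Myh11, Pdlim3, Myl9, Pln, Pgm5, Cap2, Rgs4, Higd1b, Mrvi1, Pcp4l1, Gja4, Ntrk3 and Tpm2. Npy1r, a receptor for the sympathetic transmitter neuropeptide Y, stood at 325 CPM in 39 of 55 cells against 0.195, and 96.4% of its UMIs in replicate 1 lay in the mural cells. Olfr558, an odorant receptor gene, had 66 UMIs in 31 cells and 1 UMI in all other cells of the library, a ratio of 4076 with a counting interval from 707 upward. Sncg (γ-synuclein) stood at 1256 against 3.41 CPM in 52 cells. Gm13861 overlaps Cald1 and Tagln overlaps Pcsk7 on the opposite strand. On their own strand, Xirp1 overlaps Cx3cr1, Cap2 overlaps Gm24915, Pgm5 overlaps Gm17800, and Ntrk3 overlaps Gm44607 and Gm39038. The UMIs of the genes with an overlap on their own strand are less certain.

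Of these 25 genes, 22 had a UMI in the 4 mural cells of replicate 2 and 13 in the 2 of replicate 3. Leaving out the 3 genes of the rule, the counts were 19 and 10 of 22. A single UMI there is 15.5 and 216 CPM, so a gene that is rare elsewhere stands higher with any UMI and the counts say only that one was found. Tagln stood at 1025 CPM in the mural cells of replicate 2 and 1940 in those of replicate 3, against 18.1 and 18.0 in their other cells. Sncg stood at 217 and 1725 CPM there, against 0.406 and 0.331.

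Of 42 genes of vasoactive signalling, 17 passed the level limit and 10 were at least 4-fold higher than in the other cells, with none lower. Against CAR-rule cells 18 passed, with 7 higher and 0 lower. Against tendon-rule cells 17 passed, with 11 higher and 1 lower. Ednra was 2.02-fold (1.51 to 2.66) CAR-rule cells, and Cacna1c 2.56-fold (2.15 to 3.02) CAR-rule and 2.34-fold (1.79 to 3.09) tendon-rule cells. Among receptors, the endothelin receptor gene Ednra stood at 181 against 21.7 CPM in 30 cells, and Ramp1, part of the receptor for the nerve peptide CGRP, at 175 against 51.4. Adra1a, an adrenergic receptor gene, had 18 UMIs in 4 cells, with 94.4% in 3 of them. The angiotensin receptor gene Agtr1a had 3 UMIs, and Adra1b and Adra1d had none. Among channels, Cacna1c, the L-type calcium channel that triggers contraction, stood at 512 against 55.8 CPM, Ryr2, a calcium release channel, at 172 against 11, and the background potassium channel gene Kcnk3 at 87.3 against 0.146. Kcnma1, the pore of the large-conductance potassium channel, was not higher than in the other cells, at 169 against 231 CPM. It was 3.40-fold (2.48 to 4.60) CAR-rule cells and 0.224-fold tendon-rule cells, with 51.8% of its mural UMIs in 3 cells. Its smooth muscle partner Kcnmb1 had 15 UMIs in 13 cells and 0.146 CPM elsewhere.

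Cyclic GMP relaxes smooth muscle, and genes of its handling differed in level. Pde3a, a phosphodiesterase, stood at 840 against 26.0 CPM (32.3-fold, 27.8 to 37.4), Pde5a, which breaks down cyclic GMP, at 274 against 35.0 (1.82-fold CAR-rule cells), and Mrvi1, a target of the cyclic GMP dependent kinase in the control of calcium release, at 208 against 1.37. The kinase gene itself, Prkg1, stood at 1400 against 389 CPM but at 1172 in CAR-rule cells, 1.19-fold (1.08 to 1.31). Of the natriuretic peptide receptor genes, Npr1 had no UMI and Npr2 and Npr3 had 2 each.

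Of 15 Notch pathway genes, 9 passed and Notch3, Nrip2, Nrarp and Jag1 were at least 4-fold higher than in the other cells, with none lower. Against CAR-rule cells only Nrarp and Nrip2 of 9 were higher, the median log2 ratio was −0.13, and Notch3 stood at 2.30-fold and Jag1 at 1.54-fold. Nrarp, a feedback regulator induced by Notch, stood at 72.3 against 2.63 CPM, and the ligand gene Jag1 at 129 against 26.0. The receptor genes Notch1 and Notch2 were not 4-fold apart, at 69.2 against 26.5 and 87.3 against 74.6 CPM. Dll4, a ligand of arterial endothelium, had 1 UMI. Of 20 PDGF and TGF-β genes, 17 passed, 3 were higher (Pdgfa, Pdgfc and Tgfb1i1) and 1 lower (Pdgfra). The ligand gene Pdgfa stood at 807 against 83.6 CPM in 50 of 55 cells, while Pdgfra, a receptor of fibroblastic stroma, had 6 UMIs in 2 cells and stood at 268 CPM in CAR-rule cells. Pdgfb, the endothelial ligand, had 1 UMI.

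Of 18 basement membrane genes, 14 passed, 6 were at least 4-fold higher than in the other cells (Lama5, Sparcl1, Col4a2, Lamb2, Col18a1 and Col4a5) and 1 was lower (Lama2). Against CAR-rule cells 4 of 15 were higher and 3 lower, and against tendon-rule cells 2 of 15 were higher (Lama5 and Col4a5) and 2 lower, with Col4a2 at 1.17-fold and Lamb2 at 1.16-fold. Sparcl1, a secreted matrix glycoprotein, stood at 3092 against 107 CPM, was found in all 55 cells, and 31.8% of its UMIs in replicate 1 lay in them. Col4a5 stood at 151 CPM against 3.46, and at 1.57 in CAR-rule cells. Lama5, a laminin chain, stood at 193 against 6.83 CPM. Of 18 interstitial matrix genes, 16 passed, only Eln (elastin, of artery walls) was higher and Dcn, Lum, Tnc and Fbln5 were lower, of which Fbln5 turned higher (log2 ratio 0.30) when all 3 libraries were summed. Eln stood at 154 against 4.49 CPM, from 21 cells. Col1a1 stood at 3779 against 1212 CPM, and at 284 in CAR-rule cells, but 97.4% of its UMIs lay in 3 cells. Its log2 ratio to CAR-rule cells was 3.73, and −1.04 without the cells of high Igkc, Col1a1 or Col2a1.

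Integrins are the receptors through which cells hold matrix, and Itga8 marks the bone-lining stromal cells that the study set out to describe. It was found in 36 of 55 mural cells (65.5%, exact interval 51.4% to 77.8%), with 0, 1 and 9 UMIs in the lowest, median and highest cell, and stood at 247 CPM against 7.46 in the other cells (33.1-fold, 25 to 43.6). In tendon-rule cells, 30 of 54 (55.6%) held an Itga8 UMI at 140 CPM, a ratio of mural to tendon-rule cells of 1.76 (1.23 to 2.54), and in CAR-rule cells it stood at 8.14 CPM. Among Ptprc cells 0.690% held an Itga8 UMI, and after thinning to 2000 UMIs the share was 25.5% of mural and 0.714% of Ptprc cells.
Of the Itga8 UMIs in kept cells of replicate 1, 34.9% (82 of 235) lay in the mural cells, as did 26.3% of the cells with an Itga8 UMI (36 of 137). In replicates 2 and 3 the mural cells held 1 of 502 and 0 of 411 Itga8 UMIs. Itga8 (chr2:12106632-12301922, minus strand, GRCm38) overlaps Gm37701 on its own strand. Its partner Itgb1 stood at 1120 against 344 CPM, and the laminin receptor gene Itga7 at 87.3 against 4.58. Of 18 integrin genes 10 passed, Itga3, Itga7 and Itga8 were at least 4-fold higher than in the other cells and Itga4 was lower.

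Of 16 niche factor genes for blood stem cells, 11 passed against the other cells, with Nes higher and 6 lower (5 of 10 without Cxcl12). Against CAR-rule cells 13 passed, with Nes higher and 10 lower, and against tendon-rule cells 9 passed, with Nes and Kitl higher and 4 lower. The Cxcl12 limit chose the cells, and CAR-rule cells were chosen by Cxcl12 and Lepr, so these values are fixed by the rules (Cxcl12 81.3 against 15933 CPM in CAR-rule cells, Lepr 12.0 against 1373). Kitl stood at 379 CPM in 41 of 55 cells, against 397 in the other cells (ratio 0.956 with an interval of 0.795 to 1.14). Of the 8138 Kitl UMIs in the other cells, however, 7444 lay in CAR-rule cells, so that ratio does not describe the remaining cells. The mural level was below CAR-rule cells at 1953 CPM and above the 2 UMIs (5.40 CPM) of tendon-rule cells. Vcam1 had 3 UMIs, Igf1 none, and Angpt1 9 UMIs in 4 cells. Nes, the intermediate filament gene nestin, stood at 184 CPM in 29 cells against 29.8 in the other cells and 6.30 in CAR-rule cells.

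**Figure D5:**
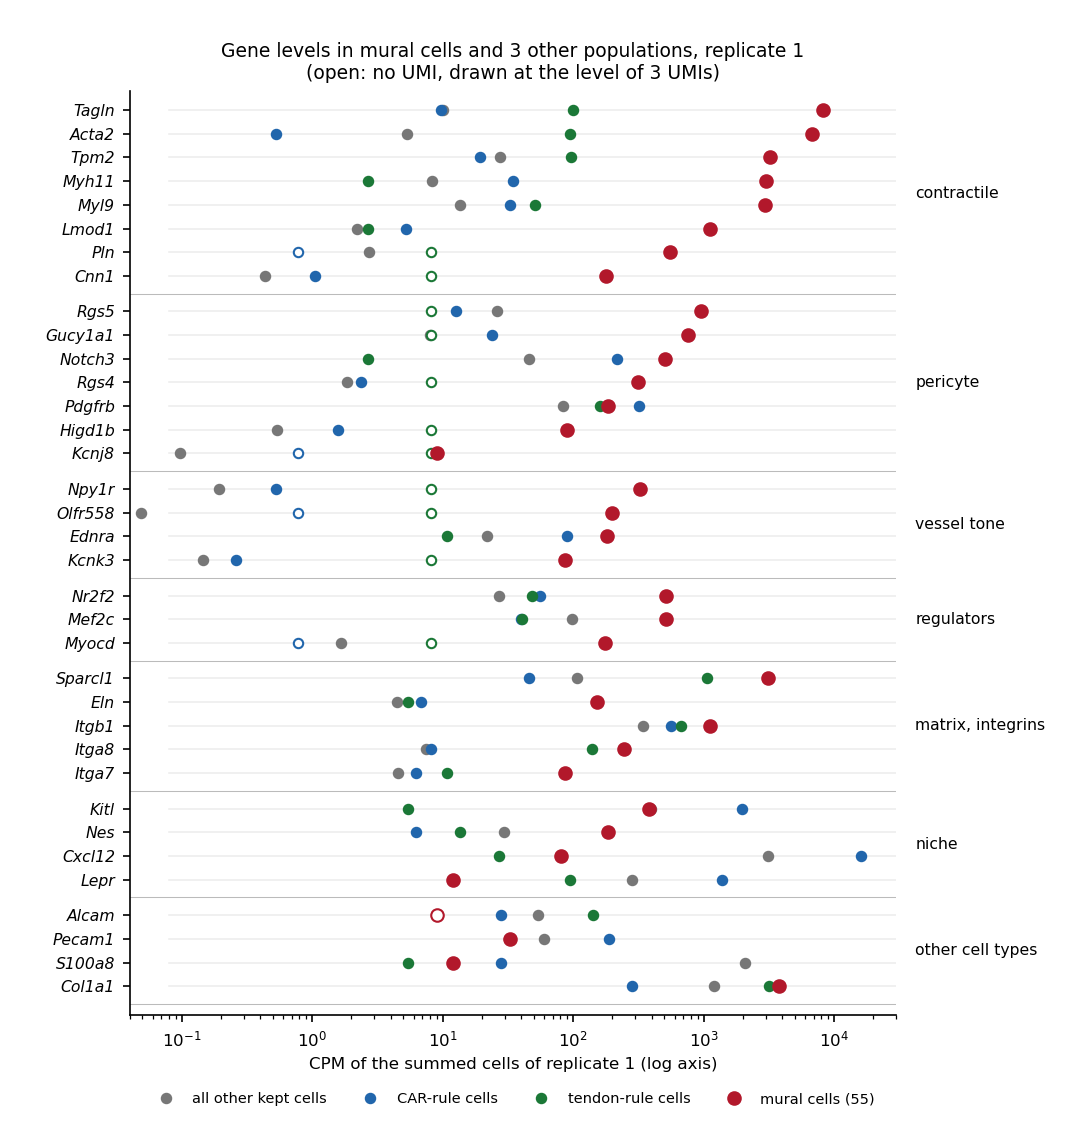
CPM on a log axis for 35 genes, grouped by role, in the 55 mural cells (red), all other kept cells (grey), CAR-rule cells (blue) and tendon-rule cells (green) of replicate 1, with open circles for genes without a UMI drawn at the level of 3 UMIs. Contractile genes lie to the right in mural cells, Pdgfrb and Itgb1 overlap with other populations, and Cxcl12 and Lepr lie to the left.

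Of 11 endothelial genes 7 were at 0, among them Cdh5, Kdr, Tek and Emcn, and their summed level was 123 CPM against 88.2 in the other cells. Esam, an adhesion gene of endothelium, made up 75.3 CPM of this from 17 cells, with 32.0% of its UMIs in 3 of them (0.731 CPM in the other cells), and Pecam1 had 11 UMIs in 3 cells. Of 11 haematopoietic genes 7 were at 0 (75.3 against 5619 CPM in sum), 1 of them Ptprc, which the rule set to 0. Of 7 erythroid genes 4 were at 0 (18.1 against 2655). Of the 9 osteoblast genes none was at 0 (6591 against 4243 CPM), with 2 genes, Bglap and Ifitm5, at least 4-fold higher, but Bglap had 328 UMIs in 4 cells, 248 and 78 of them in 2 cells. The sum also turns on Col1a1, with 97.4% of its UMIs in 3 cells. For Ibsp, 331 of 421 UMIs lay in the replicate 1 cell with the high doublet score. Without the cells of high Igkc, Col1a1 or Col2a1, the log2 ratio was −4.74 for Bglap and −0.076 for Ifitm5. Of 9 tendon genes 4 were at 0 (117 against 842 CPM), among them Mfap4 and Kera, of 9 chondrocyte genes 2 (485 against 2592), of 8 fibroblast genes 4 (78.3 against 314) and of 6 glial genes 5 (21.1 against 162). In the chondrocyte sum Comp made up 250 CPM, with 68 of its 83 UMIs in the cell with the high doublet score. Col11a1 made up 163 CPM, with 51 of its 54 UMIs in the cell with 941 Col1a1 UMIs. The CAR list stood at 744 against 5514 CPM, with Adipoq at 0. Cxcl12, which the rule limited, made up 81.3 and 3109 CPM of these sums. Without it 7 genes of the list passed, with 4 at least 4-fold lower and 0 higher.

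The sort markers did not all follow the gate at the level of RNA. Alcam, the protein on which cells were selected, had no UMI in the 55 mural cells, which by the limit of 3 counts allows up to 5.45% of cells with an Alcam UMI and 9.03 CPM and sets no limit on the cells that express it. It stood at 54.1 CPM in the other cells, with a UMI in 12.5% of them. The 6 members of the other libraries had none either. Ly6a, which encodes Sca-1, had 1 UMI (58.3 CPM in the other cells), but with all 3 libraries summed its log2 ratio was 1.37, with 14 of its UMIs in the cells of replicate 2. Transcripts and surface protein were not compared here.

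The genes lowest in mural cells against the other cells, among those of at least 200 CPM there, were Camp, Hbb-bs, Ngp, Car1, S100a8, Msmp, S100a9, Snorc, Chil1 and Hbb-bt, of which Camp, Ngp, S100a8 and S100a9 are neutrophil genes and Hbb-bs, Hbb-bt and Car1 erythroid genes. Ptprc was set to 0 by the rule. Against CAR-rule cells, the 10 genes with the largest ratios were Acta2, Pcp4l1, Tagln, Pln, Npy1r, Sncg, Ccn3, Mrvi1, Gm37800 and Dmd. Dmd (dystrophin) was found in 54 of 55 cells at 1514 CPM, against 4.20 in CAR-rule cells and 40.5 in tendon-rule cells. Against tendon-rule cells they were Myh11, Lmod1, Ctnna3, Cpe, Notch3, Sncg, Bcam, Rgs5, Fabp4 and Sorbs2. Bcam, a receptor for laminin, stood at 376 CPM in 44 cells, against 2.70 in tendon-rule cells and 9.97 in CAR-rule cells, and Ctnna3, an α-catenin, at 575 CPM in 47 cells against 2.70 and 6.04.

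Of 8 cell cycle genes 5 were at 0 in mural cells (99.4 against 802 CPM in sum), Mki67 had 2 UMIs and Top2a none. All 12 genes of the response to enzymatic dissociation passed, and 1, Atf3, was at least 4-fold higher than in the other cells (982 against 201 CPM). Fos stood at 3571 CPM against 1029 in the other cells, 2323 in CAR-rule cells and 3650 in tendon-rule cells.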

How the data were processed

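Alcam+Sca-1- BLCs of WT mice were profiled in 3 libraries of 1 group with a droplet 3′ kit. The authors aligned reads to mm10 and produced the deposited raw UMI counts per gene (32285 genes) and barcode with Cell Ranger 7.1.0. They aggregated and clustered the libraries in a viewer, and those clusters were not used here. The tables used here hold 20307 barcodes, fewer than the aggregated cells that the study states, and the shares refer to these barcodes. The values are 3′ tag counts and are not scaled for gene length.

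From the counts, barcodes with under 200 genes or over 20% mitochondrial UMIs were left out and members chosen by the stated rule. The members and the 25 gene lists were chosen with earlier results of these data known. Counts were summed over cells of replicate 1, expressed as CPM, and compared as ratios with exact conditional binomial 95% intervals, which cover counting error only, since PCR and cell-to-cell spread are not in them. A gene entered when its mean over both populations was at least 30 CPM, was called at a ratio of at least 4 or at most 0.25, and a count of 0 was set to 3 UMIs. The ratio code was tested on simulated counts. Named genes were the 6 markers, the 25 largest ratios, the 10 largest against CAR-rule and tendon-rule cells, the 10 lowest, and list members by level or size. Doublets were scored with Scrublet in scanpy 1.11.5 and not removed, 1 member in each library lying among the highest scores (0.8% per 1000 cells). Cells were thinned to 2000 UMIs for shares of cells. No test was made, since members came in effect from 1 library. Other choices tried were the scaling, the level limit, the members and the libraries. Analyses used Python 3.11.15, numpy 2.4.6, scipy 1.17.1 and pandas 2.3.3.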

Additional observations from a re-analysis of the deposited data

How the results depend on the processing

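The mean share of mural cells per library was 0.190% (all 4 genes asked for) to 0.824% (thinned to 2000 UMIs) over the settings tried, within its SD, and leaving out a library gave 0.0395% to 1.12%. Counts of genes at least 4-fold apart moved with the level limit by its construction. With no limit they were 1162 higher and 789 lower against the other cells, 996 and 901 against CAR-rule cells and 752 and 707 against tendon-rule cells. With a limit of 100 CPM they were 176 and 96, 144 and 217, and 145 and 151. The other settings left these counts within 1.5 times. Median-of-ratios scaling, the mean of per-cell CPM and the sum over 3 libraries moved the median log2 ratio of all genes against the other cells by −0.13, −0.14 and 0.26, the last by 0.10 against tendon-rule cells. No named gene that was at least 4-fold apart changed direction under the first and the second of these, but of 585 ratios of named genes 12 moved beyond their counting interval under the first, 134 under the second, 226 under the third and 299 with all 4 genes asked for.

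Single gene ratios changed direction where a few cells carry the gene. Without members holding Bglap, or without those of high Igkc, Col1a1 or Col2a1 (chosen after seeing the data), the log2 ratio of Bglap against the other cells was −4.78 and −4.74, against CAR-rule cells −2.59 and −2.55, and against tendon-rule cells −4.85 and −4.81, and with all 4 genes asked for −3.56, −1.38 and −3.64. In the first and second of these settings Ifitm5 was −0.12 and −0.076 against the other cells and −0.68 and −0.64 against tendon-rule cells. Against CAR-rule cells Bglap2 was −1.14 and −1.10, Col11a1 −1.97 and −1.93, Col1a1 −1.08 and −1.04 (−1.02 with all 4 genes) and Col1a2 −2.07 and −2.06 (−2.64). With all 3 libraries summed, Fbln5 was 0.30 and Ly6a 1.37 against the other cells, and Sox9 0.71 against CAR-rule and 0.10 against tendon-rule cells. No paired analysis was possible because there is 1 group of libraries. A count of 0 in the mural cells leaves up to 9.03 CPM unseen.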
